A study of Mus musculus with 12 samples.

Results

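The genotype by load interaction was read in sorted mouse muscle progenitors as the overload change in cdKO cells minus the overload change in control cells, gene by gene. It used 12 of the 12 libraries of the series, 3 in each of 4 groups, so membership rested on the labels alone and on no measured value. RNA was sequenced from fibro-adipogenic progenitors, Pdgfra-positive mesenchymal cells sorted from plantaris muscle, a calf muscle, at 1000 cells per tube. The cdKO overload and cdKO sham groups carried Pdgfra-CreERT2 with floxed Yap1 and floxed Taz alleles (Taz has the gene symbol Wwtr1), and their muscles had been overloaded or sham-operated. The control overload and control sham groups carried Pdgfra-CreERT2 without floxed alleles, under the same loads. All 4 groups therefore shared the Cre driver, which is expected to act in Pdgfra-expressing cells of other tissues as well. Not given in the sources used here were the time after surgery, the induction of Cre, the floxed exons and any pooling. Since no label ties a library to an animal of its own, the p-values below rest on the spread from library to library, part of which may be technical.

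Mechanical overload of a muscle is a model of muscle growth, in which the progenitors around the fibres divide and change the matrix and the signals they make. YAP and TAZ, the products of Yap1 and Wwtr1, are co-activators that enter the nucleus when the Hippo kinases are inactive or when cells sense stiffness and stretch, and there they bind TEAD factors. An interaction asks whether a response depends on genotype: a positive value means that overload raised a gene more, or lowered it less, in cdKO cells, and a negative value means the reverse.

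Library totals ran from 336437 to 1564581 counts, and 8161 of 54100 genes passed the filter on low counts. The 7 defining markers of the progenitors (Pdgfra, Ly6a, Cd34, Pdgfrb, Dcn, Col1a1 and Col3a1) were counted in 12 of 12 libraries. Their summed level was 66192 to 70112 CPM (counts scaled to a common library size) in cdKO overload, 44324 to 50717 CPM in cdKO sham, 46462 to 66340.0 CPM in control overload and 43446 to 51623 CPM in control sham. This sum came mostly from Col3a1, Dcn and Col1a1, and its members moved in different directions. Col3a1 and Col1a1 rose with overload in both genotypes, whereas Dcn fell in both. Pdgfra and Pdgfrb fell in cdKO and Cd34 in control cells, and Ly6a did not pass in either. Of the overloaded libraries, cdKO replicate 2 (7.39) and control replicate 1 (15.8) had the lowest scores on the first principal component, that is, the closest to sham, and the other 4 scored 32.6 to 61.1. Summed Y-linked genes were at 64.9 and 68.9 CPM in control overload replicates 2 and 3, against 118 to 270 CPM in the other 10 libraries. The share of counts on satellite gene models was 0.633% in control overload replicate 2, against 3.91% to 11.3% elsewhere. In these bulk samples, fewer cells of a type and less RNA per cell cannot be told apart.

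Of the deleted genes, Wwtr1 was lower in cdKO cells under both loads, and Yap1 did not pass. Wwtr1 was at 20.1, 18.2 and 22.5 CPM in cdKO overload and 36.7, 40.6 and 27.1 CPM in cdKO sham, against 174, 125 and 125 CPM in control overload and 124, 108 and 126 CPM in control sham libraries. Every cdKO library lay below every control library, with log2 differences (± SE) of -2.78 ± 0.28 after overload and -1.74 ± 0.27 without it (adjusted p = 1.83e-06 and 0.00733). Its interaction was -1.03 ± 0.39 (95% interval -1.84 to -0.23, adjusted p = 0.884), with overload changes of -0.79 ± 0.31 in cdKO and 0.24 ± 0.24 in control cells that did not pass. Yap1 was at 40.2, 22.1 and 33.7 CPM in cdKO overload and 71.5, 56.2 and 65.7 CPM in cdKO sham, and at 91.3, 47.4 and 39.7 CPM in control overload and 108, 91.6 and 94 CPM in control sham. The genotype difference of Yap1 was -0.85 ± 0.32 after overload and -0.61 ± 0.30 without it (adjusted p = 0.586 and 0.999). The overloaded libraries overlapped, the sham libraries were all lower in cdKO, and the interaction was -0.24 ± 0.44 (95% interval -1.14 to 0.66). These values count reads over the whole gene, and with the floxed exons not given they are no direct check of recombination.

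No single gene passed the interaction test. Of 8161 genes, 0 were higher and 0 were lower at a Benjamini-Hochberg adjusted p under 0.05 (edgeR quasi-likelihood test), and the smallest adjusted p was 0.167, for Procr. At an unadjusted p under 0.05 there were 427 genes (5.23% of those tested), 212 higher (2.6%) and 215 lower (2.63%). That share is close to what this cutoff would give if no gene differed. DESeq2 called 1 gene, Procr, and limma voom called 0. The median standard error of an interaction was 0.53 on the log2 scale, so the 95% interval of the median gene reached 1.10 to either side. The intervals of 1167 genes (14.3%) lay wholly within a 2-fold difference in either direction, and those of 5890 genes (72.2%) within a 4-fold difference. A missed threshold therefore does not show that a gene responded alike in both genotypes.

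The 2 overload responses went the same way over most of the genes that responded at all. In cdKO cells 520 genes rose and 545 fell (13% of those tested), and in control cells 867 rose and 901 fell (21.7%). Of these, 788 were called in both genotypes in the same direction and 0 were called in opposite directions. Across genes, which are not independent replicates, the 2 overload changes had a Pearson r of 0.714 and a Spearman rho of 0.705, and these changes share no library. The spread of the overload change over genes was smaller in cdKO cells, with an SD of 0.825 against 1.03 in control cells on the log2 scale.

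**Figure D1:**
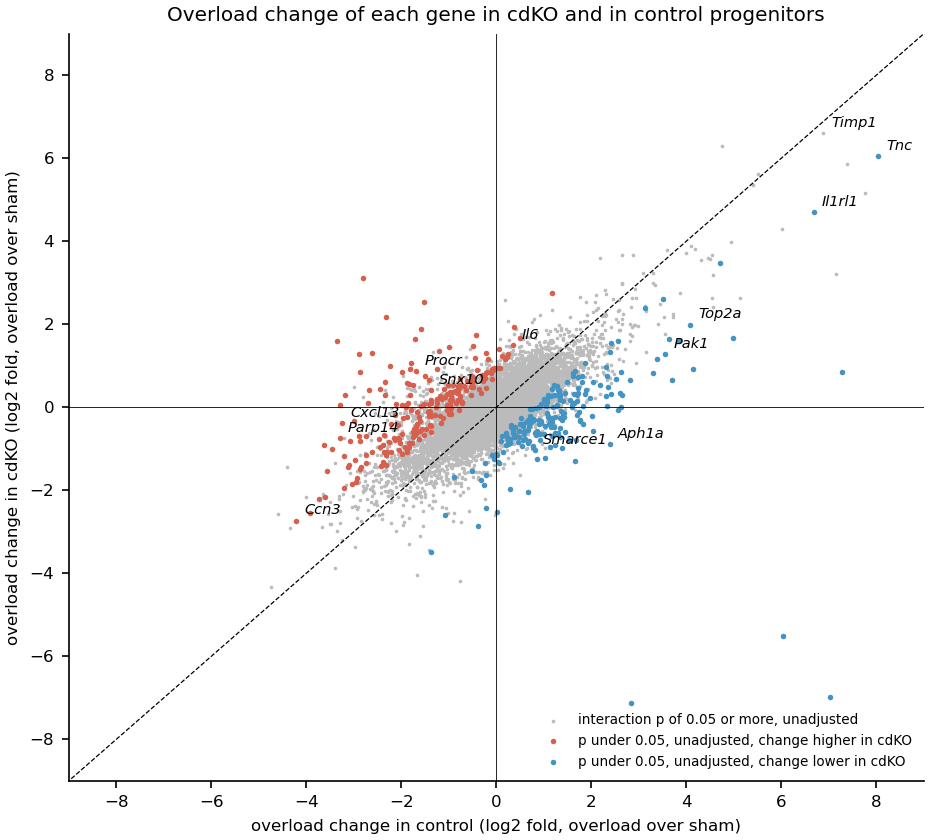
Overload change of each of the 8161 genes tested in cdKO cells (vertical axis) and control cells (horizontal axis), both as log2 fold of overload over sham; the dashed line marks equal change. Coloured points have an unadjusted interaction p under 0.05, with 212 above and 215 below the line, and 0 passed the adjusted threshold. The lowest points on the right are haemoglobin genes, whose fitted values depend on groups with hardly any counts.

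Because calling genes in one genotype selects for a large change there, the size of the responses was compared over genes chosen on the average overload change of both genotypes, which is close to independent of the interaction in this balanced design. The 1369 genes that rose on average had a median overload change of 0.85 in cdKO and 1.06 in control cells, and 915 of them (66.8%) rose less in cdKO. The 1384 genes that fell on average had medians of -0.99 in cdKO and -1.24 in control cells, and 951 changed less in cdKO. Among the 100 average risers of at least 4-fold the medians were 2.39 in cdKO and 3.04 in control cells, with a smaller change in cdKO for 80. Among the 135 average fallers of at least 4-fold they were -2.08 and -2.73, with a smaller change in cdKO for 109. Sets called in 1 genotype favour that genotype by selection, and the size of the difference depended on which genotype made the call. The 520 risers called in cdKO had 1.20 in cdKO and 1.18 in control cells, and the 867 risers called in control cells had 0.87 in cdKO and 1.32 in control cells. The 545 fallers called in cdKO had -1.39 in cdKO and -1.48 in control cells, and the 901 called in control cells -0.98 and -1.53.

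How much smaller the average response was in cdKO depended on 1 library in each genotype. Relative to sham cells of its own genotype, the median change of the average risers was 0.89, 0.61 and 0.98 in cdKO overload replicates 1 to 3 and 0.76, 1.21 and 1.11 in control overload replicates 1 to 3. For the average fallers it was -1.03, -0.64 and -1.06 in cdKO and -0.80, -1.27 and -1.22 in controls. Both genotypes thus held 1 library with a small response, and the ranges overlapped. Without cdKO overload replicate 2 the median interaction was -0.090 for risers and 0.024 for fallers, against -0.21 and 0.28 with all libraries, and 53.7% of average responders changed less in cdKO, against 67.8%. Without control overload replicate 1 the medians were -0.36 and 0.47, and the share was 76.2%. Without both libraries they were -0.22 and 0.24, and the share was 64.2%.

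Among the 8 genes with the smallest p in the positive direction and at least 20 CPM, none passed, and they are given as the strongest candidates of this contrast. Procr, which encodes the endothelial protein C receptor and lies on chromosome 2, 155751117 to 155755471, plus strand (GRCm38), stood at 385, 234 and 573 CPM in cdKO overload and 244, 167 and 244 CPM in cdKO sham libraries. In controls it was at 141, 147 and 153 CPM after overload and 248, 712 and 457 CPM in sham muscle. The overloaded libraries of cdKO all lay above those of control, and the sham libraries of cdKO all lay below those of control. Groups without overlap were common: 30% of genes between overload and sham in cdKO, 36.9% in control, and 10.7% in overloaded and 9.89% in sham muscle between cdKO and control. Its interaction was 2.56 ± 0.47 on the log2 scale (SE, 95% interval 1.59 to 3.53, adjusted p = 0.167). Overload lowered Procr in control cells by a log2 change of -1.69 ± 0.33 (adjusted p = 0.00113), whereas the change in cdKO cells was 0.87 ± 0.33 and did not pass (adjusted p = 0.0853). The adjusted p was 0.00167 by DESeq2, 0.0250 with counts thinned to the smallest library, 0.00968 without cdKO overload replicate 2, 0.00629 without control sham replicate 1 and 0.993 with the Y-linked share as a covariate, where the interaction was 1.79.

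Cxcl13, a chemokine that attracts B cells, was at 40.2, 20.8 and 40.4 CPM in cdKO overload and 42.2, 47.9 and 40.6 CPM in cdKO sham libraries, against 5.17, 7.79 and 2.33 CPM in control overload and 27, 50.6 and 90.7 CPM in control sham libraries. The 3 overloaded controls lay below each of the other 9 libraries. The interaction was 2.87 ± 0.63 (adjusted p = 0.183). Overload lowered Cxcl13 in control cells (-3.25 ± 0.51, adjusted p = 2.26e-05), the change in cdKO cells was -0.38 ± 0.38 (adjusted p = 0.570), and in overloaded muscle it was higher in cdKO than in control cells (2.58 ± 0.50, adjusted p = 0.0250). It was the 1 gene (0.0123% of those tested) that passed as higher in cdKO in overloaded muscle. The 2 lower ones (0.0245%; 0.0368% in all) were Wwtr1 and F2rl1, which encodes a protease-activated receptor. In sham muscle 0 passed as higher and 1, Wwtr1, as lower (0.0123%). By voom, with thinned counts and with the Y-linked covariate 0 genes passed as higher in overloaded muscle. The count was also 0 when cdKO overload 1 or 3, cdKO sham 1, control overload 2 or 3 or control sham 2 was left out, and 17 without control overload 1. With thinned counts 1 gene passed as lower in overloaded and 0 in sham muscle, and the sham count was also 0 without cdKO sham 1 or 3 or control sham 1 or 3.

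Snx10, a sorting nexin of endosomes, had 54.1, 52 and 62.9 CPM in cdKO overload and 40.3, 42.7 and 44.5 CPM in cdKO sham libraries. Control libraries had 25.8, 30.5 and 22.2 CPM after overload and 83.3, 60.2 and 64.8 CPM in sham muscle. Overloaded cdKO libraries were all above cdKO sham, and overloaded control libraries all below control sham, a pattern of opposite and non-overlapping changes that 24 genes (0.294% of those tested) showed. The interaction was 1.78 ± 0.39 (adjusted p = 0.236), the fall in control cells passed (-1.37 ± 0.28, adjusted p = 0.00107), and the change in cdKO cells did not (0.41 ± 0.27, adjusted p = 0.354).

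The other 5 differed in the size of a decrease. Pcolce2, an enhancer of procollagen C-proteinase, was at 63.3, 59.8 and 65.1 CPM in cdKO overload and 86.2, 119.7 and 104 CPM in cdKO sham, against 37.9, 37 and 42 CPM in control overload and 173, 191 and 156 CPM in control sham libraries. It fell in both genotypes (-0.73 ± 0.24 in cdKO and -2.16 ± 0.24 in control cells), with no overlap of overload and sham libraries in either. Its interaction was 1.43 ± 0.34 (adjusted p = 0.298). Angptl7, a secreted angiopoietin-like protein, had an interaction of 1.69 ± 0.40, and Qpct, the glutaminyl cyclase that modifies peptide ends, one of 2.72 ± 0.70. Both fell in control cells, and their overload changes in cdKO cells were -0.67 ± 0.28 and -0.91 ± 0.43 and did not pass. Parp14 and Ifi205, the remaining 2, belong to the interferon response described below.

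**Figure D2:**
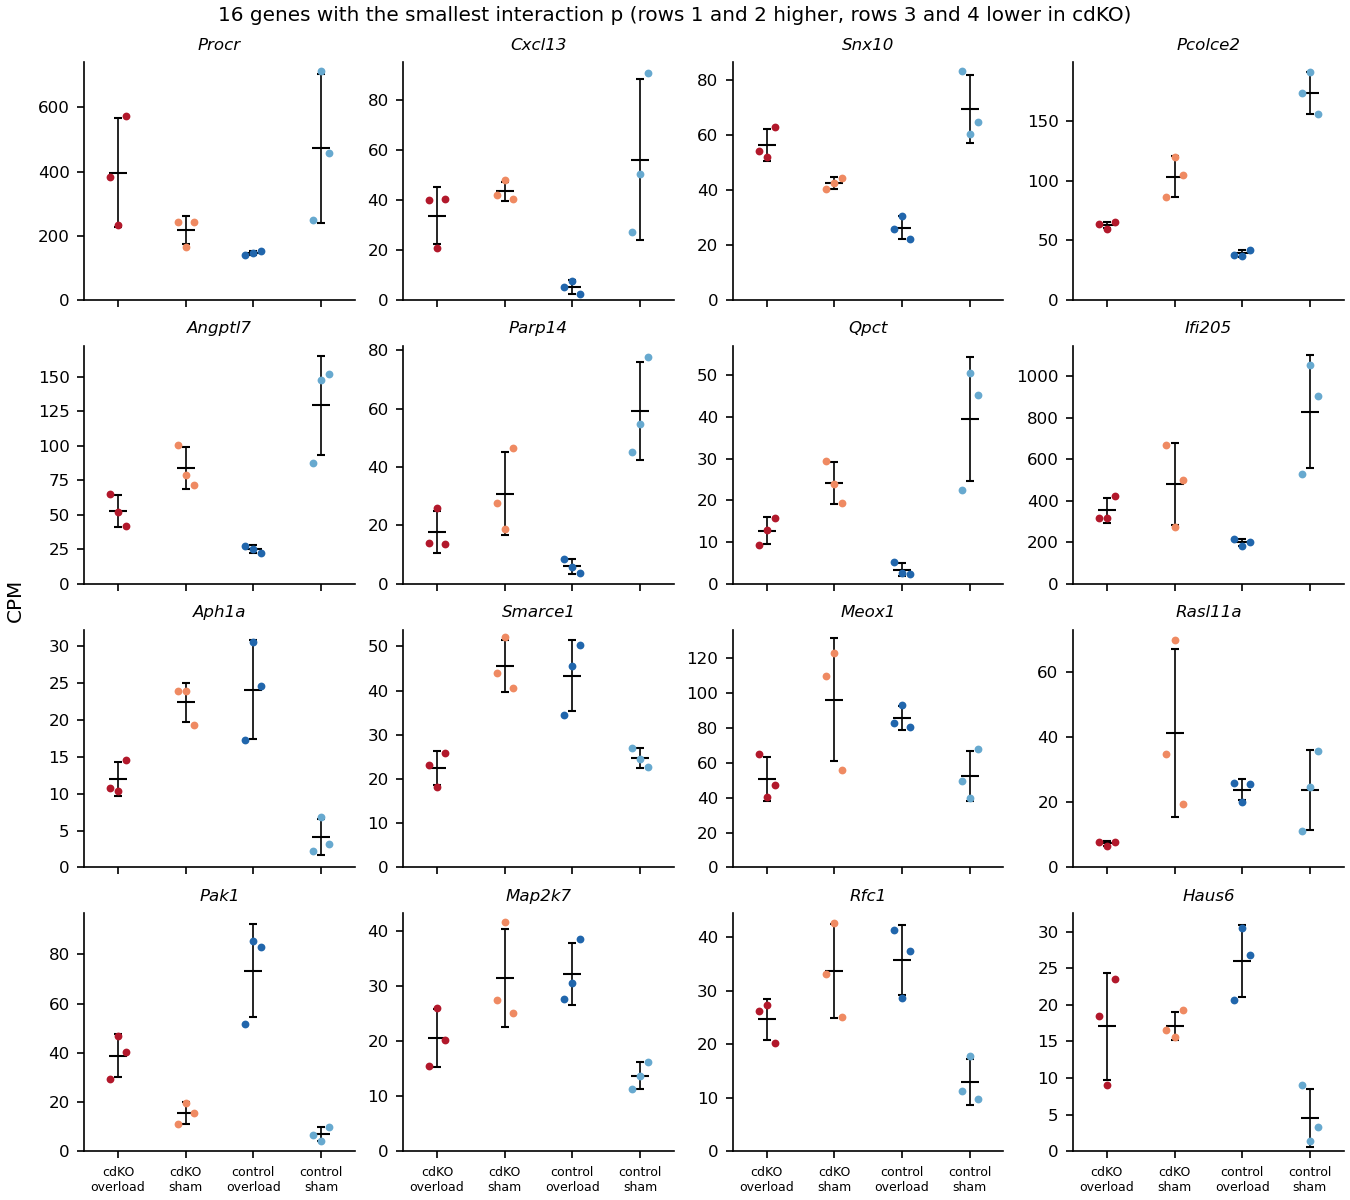
CPM in each library of the 16 genes with the smallest interaction p and at least 20 CPM, with the group mean and SD (n = 3 libraries per group) as black bars. In the first 8 panels the overloaded controls are low, and in the last 8 the sham controls or the overloaded cdKO libraries are low; 0 of the 16 passed the adjusted threshold.

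Among the 8 genes with the smallest p in the negative direction and at least 20 CPM, none passed either. Aph1a, a subunit of gamma-secretase, was at 10.8, 10.4 and 14.6 CPM in cdKO overload and 23.8, 23.9 and 19.3 CPM in cdKO sham libraries. Controls had 17.2, 30.5 and 24.5 CPM after overload and 2.25, 6.84 and 3.24 CPM in sham muscle. In control sham replicates 1 and 3 these values lay below the floor of 3 counts (6.76 and 9.72 CPM), so the size of the control rise is uncertain. Overload and sham did not overlap in either genotype, and the directions were opposite. The interaction was -3.28 ± 0.72 (95% interval -4.77 to -1.79, adjusted p = 0.183). Aph1a rose in control cells (2.39 ± 0.58, adjusted p = 0.00169), and the change in cdKO cells was -0.89 ± 0.43 (adjusted p = 0.168).

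Smarce1, a subunit of the SWI/SNF chromatin remodelling complex, also moved in opposite directions without overlap, with 23.2, 18.2 and 25.8 CPM in cdKO overload and 44, 52.1 and 40.6 CPM in cdKO sham, against 34.5, 45.4 and 50.2 CPM in control overload and 27, 24.6 and 22.7 CPM in control sham. Here the fall in cdKO passed (-1.03 ± 0.31, adjusted p = 0.0269) and the change in control cells did not (0.81 ± 0.32, adjusted p = 0.0690). Its interaction was -1.84 ± 0.45 (adjusted p = 0.298). Meox1, a homeobox factor of mesodermal cells, fell in cdKO cells as well (-0.95 ± 0.29, adjusted p = 0.0319), against 0.76 ± 0.31 in control cells. For Rasl11a, a Ras-like GTPase, the fall was seen in cdKO cells (-2.52 ± 0.50, adjusted p = 0.000943), where the 3 overloaded libraries held 7.72, 6.5 and 7.86 CPM, against 34.8, 69.8 and 19.3 CPM in cdKO sham. In control cells its change was 0.022 ± 0.45.

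Pak1, a kinase that acts downstream of Rac and Cdc42 on the cytoskeleton, showed a weaker rise in cdKO cells. It was at 29.4, 46.8 and 40.4 CPM in cdKO overload and 11, 19.8 and 15.5 CPM in cdKO sham, and at 51.7, 85.7 and 82.9 CPM in control overload and 6.76, 4.10 and 9.72 CPM in control sham libraries. Each control sham value of Pak1 equals the floor of 3 counts in its library. Both rises passed, at 1.29 ± 0.37 in cdKO and 3.56 ± 0.51 in control cells, and the interaction was -2.27 ± 0.62 (adjusted p = 0.370). Map2k7, a kinase of the JNK pathway, Rfc1, the large subunit of the clamp loader of DNA replication, and Haus6, a subunit of the augmin complex of the spindle, rose in control cells by 1.25 ± 0.41, 1.34 ± 0.40 and 2.62 ± 0.66. In cdKO cells the same genes changed by -0.64 ± 0.35, -0.49 ± 0.34 and 0.016 ± 0.46 and did not pass.

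Taken by direction, the 212 genes with a positive interaction at an unadjusted p under 0.05 comprised 107 whose fitted change was upward in cdKO and downward in control cells, 94 with a weaker change and 11 with a stronger change in cdKO. The 215 negative ones comprised 119 with opposite fitted changes, 82 weaker and 14 stronger in cdKO. Of the 107 and 119 genes with opposite fitted changes, 3 and 8 were called in cdKO and 34 and 25 in control cells. Weaker responses outnumbered stronger ones among these genes, in a selection made on the interaction itself, which favours whichever genotype has the larger changes.

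Interferon-response genes were mostly lower after overload, with fewer called and smaller median decreases in cdKO cells. These genes are induced through STAT and IRF factors and encode antiviral GTPases, nucleic acid sensors and the PYHIN family. Of 34 tested, 0 rose and 17 fell in cdKO cells (background 6.68% lower), against 0 and 26 in control cells (background 11% lower). Their median overload change was -1.28 in cdKO and -2.12 in control cells, and their median interaction was 0.81, against 0.022 over all genes. The interaction was above 0 for 30 of the 34, against 51.7% of all genes, and 10 were positive and 0 negative at an unadjusted p under 0.05, against 2.6% and 2.63% of all genes. Counts of called members in the other lists are likewise to be read against all genes tested, of which 6.37% rose and 6.68% fell in cdKO and 10.6% rose and 11% fell in control cells. Counts of interactions above or below 0 are to be read against 51.7% and 48.3% of all genes.

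Across libraries, the mean log2 CPM of the 34 genes was 4.77, 5.55 and 4.76 in cdKO overload and 6.13, 6.21 and 6.16 in cdKO sham. In controls it was 5.05, 4.65 and 4.70 after overload and 6.43, 6.83 and 6.58 in sham muscle. The sham levels did not overlap, with cdKO lower, whereas the overloaded levels did, and cdKO overload replicate 2 was the highest of the 6. The median difference of cdKO from control was 0.26 in overloaded and -0.51 in sham muscle. Without cdKO overload replicate 2 the median interaction was 0.26, with 5 genes positive at an unadjusted p under 0.05. Over the 25 alternatives run it ranged from 0.26 to 1.12, and was 0.60 with the Y-linked share as a covariate. Summed markers of macrophages, which also express such genes, were at 11.2 to 72.8 CPM in cdKO overload, 28.1 to 51.3 CPM in cdKO sham, 14.9 to 63.7 CPM in control overload and 52 to 67.6 CPM in control sham.

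Parp14, a mono-ADP-ribosyltransferase induced by interferon, had the smallest p of the list. It was at 13.9, 26 and 13.5 CPM in cdKO overload and 27.5, 18.7 and 46.4 CPM in cdKO sham libraries, and at 8.61, 5.84 and 3.5 CPM in control overload and 45, 54.7 and 77.8 CPM in control sham. Overload and sham overlapped in cdKO but not in controls. The interaction was 2.56 ± 0.63 (adjusted p = 0.298), with a change of -0.74 ± 0.41 in cdKO (adjusted p = 0.256) and a called decrease of -3.30 ± 0.48 in control cells. Ifi205, a PYHIN family member, had 317, 319 and 424 CPM in cdKO overload and 667, 272 and 499 CPM in cdKO sham, against 214, 183 and 199.6 CPM in control overload and 529, 1055 and 904 CPM in control sham. Its overloaded cdKO libraries all lay above the overloaded controls, and its interaction was 1.63 ± 0.42 (adjusted p = 0.339). Mndal, of the same family, fell in both genotypes (-1.33 ± 0.28 in cdKO and -2.75 ± 0.29 in control cells), with an interaction of 1.42 ± 0.40 (adjusted p = 0.582). Members of this family are similar in sequence, so reads may be shared between them.

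The promoters of Ifi205 and Mndal are shown because both hold the interferon-stimulated response element, searched on both strands as GAAA followed, after 2 further bases, by a second GAAA. The motif was chosen after the list's values were seen. In the window given next, 5 of the 7 members with a promoter and a positive interaction at an unadjusted p under 0.05 held it (71.4%). That is close to the share of the whole list. Over the window from 250 bases before to 50 after the start, 19 of the 28 list members with a promoter in the table held it (67.9%), against 3.13% of the 6260 tested genes with a promoter and 7.69% of the 156 genes with a positive interaction at an unadjusted p under 0.05. The sequences are from RefSeq (GRCm38.p6), 250 bases before the start, 5′ to 3′ on the gene's strand, with the match in capitals, 134 bases before the start in Ifi205 (chr1:174031756-174032005, minus strand) and 36 in Mndal (chr1:173880188-173880437, minus strand).
Ifi205: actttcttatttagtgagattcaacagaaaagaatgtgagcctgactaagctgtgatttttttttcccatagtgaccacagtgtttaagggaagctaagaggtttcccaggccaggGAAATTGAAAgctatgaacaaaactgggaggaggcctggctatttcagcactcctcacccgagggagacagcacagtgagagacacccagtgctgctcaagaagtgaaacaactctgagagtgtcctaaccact
Mndal: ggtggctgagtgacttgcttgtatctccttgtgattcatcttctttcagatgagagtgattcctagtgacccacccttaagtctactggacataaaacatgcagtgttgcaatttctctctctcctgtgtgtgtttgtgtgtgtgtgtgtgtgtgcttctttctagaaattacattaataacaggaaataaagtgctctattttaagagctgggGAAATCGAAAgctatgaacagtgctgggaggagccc

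Complement genes, a neighbouring immune group, showed the same direction. Of 10 tested, 0 rose and 4 fell in cdKO, against 0 and 8 in control cells (all genes: 6.68% fell in cdKO and 11% in control). The interaction was above 0 for all 10, against 51.7% of all genes, with a median of 0.73. Their median overload change was -0.97 in cdKO and -1.85 in control cells. Serping1, the C1 inhibitor, was at 1750.5, 2271 and 2369 CPM in cdKO overload and 4594, 3806 and 3284 CPM in cdKO sham, against 2278, 1562 and 1174 CPM in control overload and 4322, 6782 and 6119.9 CPM in control sham. It fell in both genotypes (-0.87 ± 0.28 in cdKO and -1.78 ± 0.28 in control cells), with an interaction of 0.91 ± 0.39 (adjusted p = 0.927). C3, the central component, had an interaction of 0.67 ± 0.35. Over the alternatives the median of the list stayed between 0.50 and 1.01.

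Of 12 genes of MHC class I presentation, whose H2 members may share reads, 1 rose and 2 fell in cdKO, against 1 and 6 in control cells. The median interaction was 0.40, and -0.051 with the Y-linked share as a covariate. B2m, the class I light chain, was at 624, 398 and 708 CPM in cdKO overload and 1087, 638 and 879 CPM in cdKO sham, against 586, 312 and 342 CPM in control overload and 1275, 1747 and 1131 CPM in control sham libraries. Its sham levels were all lower in cdKO, and overloaded levels overlapped. The interaction was 1.17 ± 0.41 (adjusted p = 0.813), and that of Tap2, a peptide transporter, was 1.13 ± 0.61.

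Genes of cell division were higher after overload, with fewer called and smaller median increases in cdKO cells. Of 15 tested genes of the G2 and M phases, 4 rose in cdKO (background 6.37% higher) and 13 in control cells (background 10.6% higher), and 0 fell in either. The median overload change was 1.61 in cdKO and 2.58 in control cells. The interaction was below 0 for 15 of 15, against 48.3% of all genes, with a median of -0.90. At an unadjusted p under 0.05, 3 were negative and 0 positive, against 2.63% and 2.6% of all genes. Several members had few counts in their lowest group, such as 2 for Ccna2, 3 for Cdk1 and 5 for Tpx2 and Racgap1. The size of their changes and interactions is therefore uncertain. By library, the mean log2 CPM was 4.77, 3.57 and 4.66 in cdKO overload and 3.15, 3.01 and 3.43 in cdKO sham, and 5.07, 5.97 and 5.66 in control overload and 3.12, 2.93 and 3.65 in control sham. All overloaded cdKO libraries lay below all overloaded controls, cdKO replicate 2 was the lowest, and the sham levels overlapped. Without that library the median interaction was -0.60, and over the alternatives it ran from -1.84 to -0.60.

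Top2a, the topoisomerase of dividing cells, was at 69.5, 29.9 and 52.8 CPM in cdKO overload and 9.17, 10.4 and 19.3 CPM in cdKO sham, and at 58.6, 178 and 173 CPM in control overload and 9.01, 8.20 and 6.48 CPM in control sham. It rose in both, by 1.99 ± 0.47 in cdKO and 4.08 ± 0.57 in control cells, and the interaction was -2.09 ± 0.74 (adjusted p = 0.813). Tpx2, which activates the spindle kinase Aurora A, had 12.4, 13 and 15.7 CPM in cdKO overload and 1.83, 5.21 and 5.80 CPM in cdKO sham, against 32.7, 79.2 and 37.4 CPM in control overload and 4.50, 2.73 and 3.24 CPM in control sham. All control sham values of Tpx2 lay below the floor of 3 counts (6.76, 4.10 and 9.72 CPM in replicates 1 to 3). The overloaded libraries of the 2 genotypes did not overlap, the rise in control cells passed (3.86 ± 0.68), and that in cdKO was 1.61 ± 0.59 (adjusted p = 0.0551). Ccnb2, a cyclin of mitosis, had a similar interaction of -2.08 ± 0.76, with a rise in control cells of 2.41 ± 0.58 and a change of 0.33 ± 0.49 in cdKO.

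Of 18 S phase genes, 4 rose and 0 fell in cdKO, against 13 and 0 in control cells, with median overload changes of 1.09 in cdKO and 1.63 in control cells. The interaction was below 0 for 16, with a median of -0.57 as fitted and -0.36 with the member that had a group without counts set to its bound. Other members had few counts in their lowest group, such as 5 for Mcm3 and 6 for Mcm2. Library means were 4.86, 4.26 and 4.70 in cdKO overload and 3.78, 3.66 and 3.90 in cdKO sham, against 4.81, 5.76 and 5.65 in control overload and 3.81, 4.03 and 4.04 in control sham. cdKO overload replicate 1 overlapped control overload replicate 1, and the other overloaded libraries were lower in cdKO. Lig1, a DNA ligase of replication, had an interaction of -1.77 ± 0.71, and Rrm1, a ribonucleotide reductase subunit, one of -1.25 ± 0.59. Both rose in control cells (2.63 ± 0.51 and 1.41 ± 0.42), while the changes in cdKO were 0.86 ± 0.49 and 0.16 ± 0.41 and did not pass. For Dut, the dUTPase, the interaction was -0.91 ± 0.48. With the Y-linked share as a covariate, the median of the S phase list was -0.032 and that of the G2 and M list -0.83. An E2F motif (TTTGGCGC or TTTCCCGC, both strands) was found in 5 of 16 S phase promoters (31.2%), against 3.18% of all and 8.24% of the 182 genes with a negative interaction at an unadjusted p under 0.05.

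Of 16 genes that drive or restrain cell cycle entry, 0 rose and 3 fell in cdKO, against 2 and 4 in control cells. The 3 fallers in cdKO were Cdkn1a (-1.36), Cdkn1c (-2.15) and Btg2 (-1.36), which restrain division. They fell in control cells too (-1.76, -2.62 and -0.93), together with Myc (-1.29). The median interaction was -0.12, over genes of opposite roles, so it gives no direction for entry itself. E2f1, a factor that drives replication genes, rose in control cells (2.39 ± 0.67, adjusted p = 0.00625) and changed by 0.70 ± 0.59 in cdKO (adjusted p = 0.469), with an interaction of -1.69 ± 0.90.

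**Figure D3:**
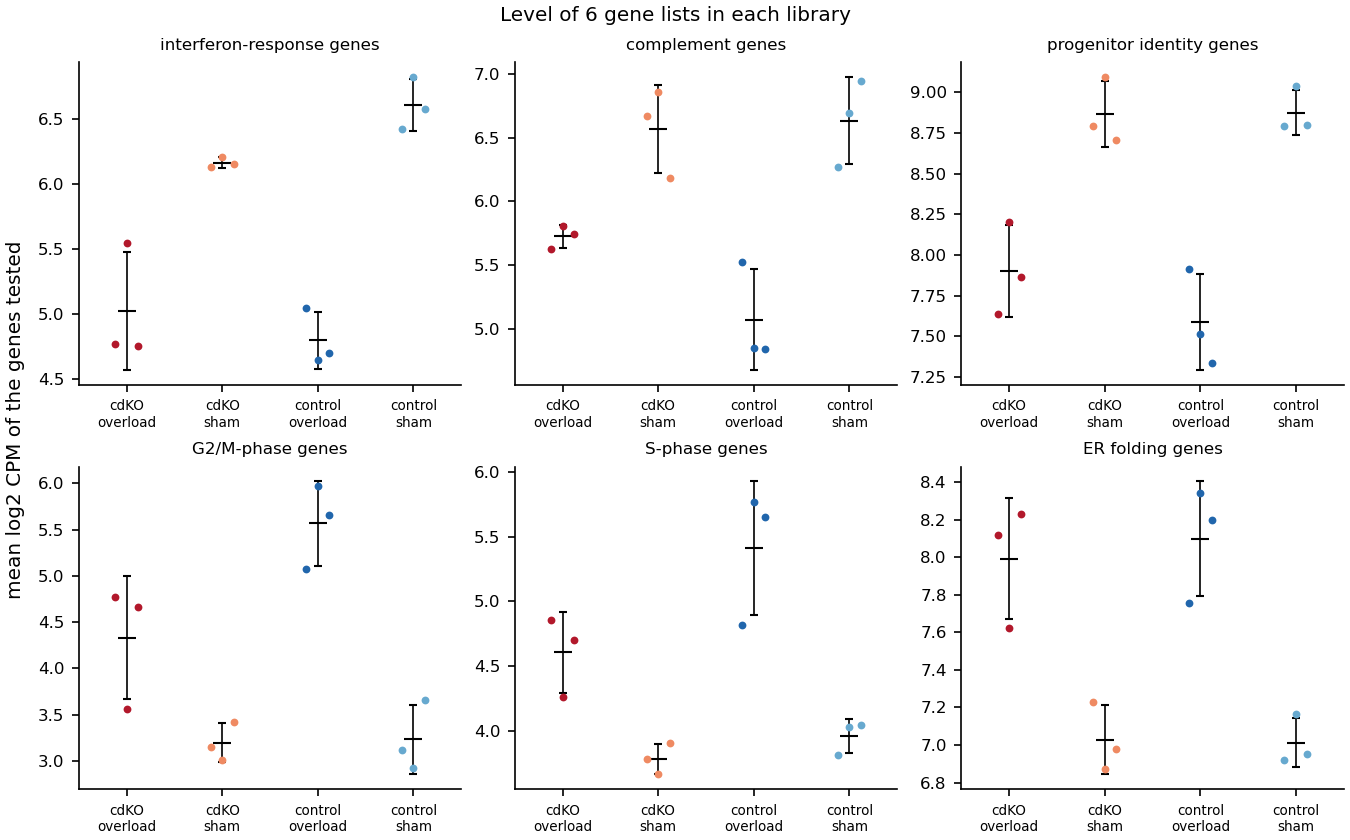
Mean log2 CPM of 6 gene lists in each library, with the group mean and SD (n = 3 libraries per group) in black; vertical axes do not start at 0. Interferon-response genes are lower in sham cdKO than in sham control libraries, G2/M genes are lower in all 3 overloaded cdKO libraries than in the overloaded controls, and ER folding genes overlap between genotypes under both loads.

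The genes that changed most under overload on average were chosen without overlap of the 6 overloaded and 6 sham libraries, which fixes a common direction in both genotypes. Tnc, the matrix glycoprotein tenascin-C, was at 1411, 1204 and 1438 CPM in cdKO overload and 31.2, 7.29 and 27.1 CPM in cdKO sham libraries. In controls it was at 1029, 1896 and 1647 CPM after overload and 9.01, 0 and 13 CPM in sham muscle. The overloaded libraries of the 2 genotypes overlapped, and the sham libraries held few counts. The log2 rise was 6.05 ± 0.46 in cdKO and 8.03 ± 0.74 in control cells, with an interaction of -1.98 ± 0.87 (95% interval -3.81 to -0.15, adjusted p = 0.925). In overloaded muscle cdKO differed from control by -0.18 ± 0.36, and in sham muscle by 1.80 ± 0.80.

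Il1rl1, the receptor for interleukin 33, differed on the overloaded side instead. It was at 334, 144 and 408 CPM in cdKO overload and 14.7, 6.25 and 15.5 CPM in cdKO sham, and at 460.0, 1170.3 and 1003 CPM in control overload and 6.76, 4.10 and 19.4 CPM in control sham. All overloaded cdKO libraries lay below the overloaded controls, and the interaction was -1.99 ± 0.90 (adjusted p = 0.927). Timp1, which encodes a tissue inhibitor of metalloproteinases, rose by 6.61 ± 0.59 in cdKO and 6.87 ± 0.62 in control cells, with an interaction of -0.26 ± 0.86. Cthrc1, a secreted collagen triple helix repeat protein, rose in both genotypes and had 1 count in control sham against 470 in control overload, a ratio of 234 (95% counting interval 41.8 to 9273). For Cthrc1 no interaction estimate is given, since it would depend on the prior count.

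Ccn3, a matricellular protein of the CCN family, had the smallest interaction p among these largest responders. It stood at 9.27, 27.3 and 23.6 CPM in cdKO overload and 156, 151 and 102 CPM in cdKO sham, against 10.3, 8.44 and 5.84 CPM in control overload and 159.9, 180.5 and 110.2 CPM in control sham. It fell in both genotypes (-2.73 ± 0.33 in cdKO and -4.21 ± 0.39 in control cells), and the interaction was 1.48 ± 0.51 (adjusted p = 0.740). The sham levels overlapped, and cdKO overload replicate 1 overlapped the overloaded controls. Inmt, an indolethylamine methyltransferase, Slco2b1, an organic anion transporter, and Fam124a fell in both genotypes, with interactions of 0.42 ± 1.41, 0.79 ± 1.05 and -0.47 ± 1.10. G0s2, an inhibitor of adipose triglyceride lipase, had 3 counts in control overload against 36 in control sham, a ratio of 0.0415 (95% counting interval 0.00818 to 0.131), and changed by -2.91 ± 0.97 in cdKO. Without cdKO overload replicate 2 the interactions of Inmt and Slco2b1 were -1.10 and -1.26, and that library had the highest level of both among overloaded cdKO libraries.

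**Figure D4:**
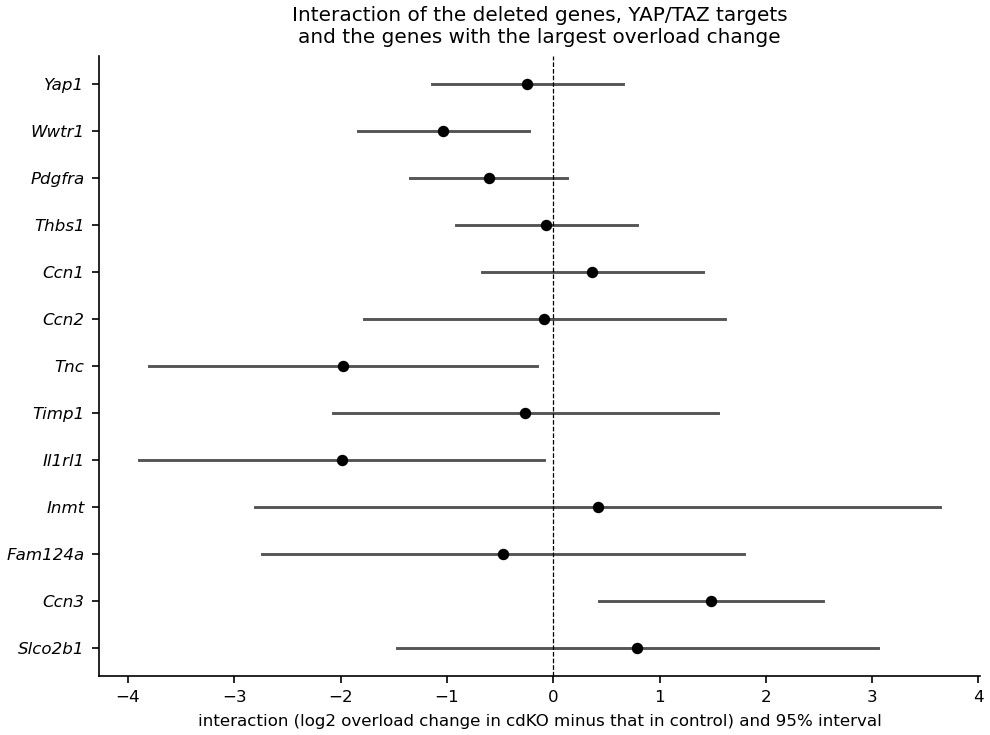
Interaction (log2 overload change in cdKO minus that in control) with its 95% interval for the deleted genes, Pdgfra, YAP/TAZ targets and the genes with the largest average overload change; genes with 3 or fewer counts in a group are left out. Before adjustment, the intervals of Wwtr1 and Tnc are among those below 0, and that of Ccn3 lies above 0. Those of Timp1 and Inmt reach beyond a 4-fold difference.

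Genes of the extracellular matrix were called in both genotypes, beside 13% of all genes in cdKO and 21.7% in control cells. Of 46 genes of matrix assembly, 18 rose and 8 fell in cdKO, against 17 and 10 in control cells, and the median interaction was 0.048. Of 21 collagen genes, 5 rose and 0 fell in cdKO, against 5 and 1 in control cells, with a median interaction of -0.038. Col8a1, a short-chain collagen, rose by 2.60 ± 0.28 in cdKO and 3.5 ± 0.32 in control cells, with an interaction of -0.90 ± 0.43. Col5a3, a chain of the fibrillar type V collagen, had one of -0.96 ± 0.36 (adjusted p = 0.884). Of 13 basement membrane genes 6 fell in each genotype, and the median interaction was 0.011. Among 22 proteases and inhibitors the interaction was above 0 for 17, with a median of 0.41. Timp2, an inhibitor of metalloproteinases, fell in both genotypes (-1.08 ± 0.27 in cdKO and -1.88 ± 0.27 in control cells), with an interaction of 0.80 ± 0.39, and Serpine2, an inhibitor of serine proteases, had an interaction of 0.97 ± 0.39. Of 15 tendon and cartilage genes, 6 rose and 2 fell in cdKO, against 5 and 4 in control cells, with a median interaction of 0.14. They included Cilp, a cartilage intermediate layer protein, and Thbs4, a thrombospondin of tendon, which rose in both genotypes, with interactions of -0.75 ± 0.35 and -0.86 ± 0.52.

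Of 34 actin and myofibroblast genes, 7 rose and 1 fell in cdKO, against 12 and 0 in control cells, and the median overload changes were 0.64 in cdKO and 0.67 in control cells. Actn1, alpha-actinin 1, was at 207, 134 and 207 CPM in cdKO overload and 77, 45.8 and 61.9 CPM in cdKO sham, against 202, 328 and 287 CPM in control overload and 58.6, 32.8 and 51.8 CPM in control sham. It rose in both (1.59 ± 0.28 in cdKO and 2.56 ± 0.30 in control cells), and its interaction was -0.97 ± 0.41 (adjusted p = 0.925). Myh10, a non-muscle myosin heavy chain, fell in cdKO cells (-1.25 ± 0.34, adjusted p = 0.0158) and changed by -0.048 ± 0.36 in control cells.

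Several secreted signals differed in size or place of change. Il6, the cytokine interleukin 6, was at 1037, 672 and 1315 CPM in cdKO overload and 566, 264 and 238 CPM in cdKO sham, and at 293, 399.8 and 528 CPM in control overload and 236, 391 and 330.5 CPM in control sham. All overloaded cdKO libraries lay above all other 9, Il6 rose in cdKO (1.5 ± 0.32, adjusted p = 0.00407) and its change in control cells was 0.35 ± 0.33 (adjusted p = 0.475). The interaction was 1.16 ± 0.46 (adjusted p = 0.925). Of 27 cytokine genes, 14 rose and 3 fell in cdKO, against 11 and 5 in control cells, and the median interaction was 0.16, or -0.21 with the Y-linked share as a covariate. Bmp2, a bone morphogenetic protein, was at 167, 187 and 173 CPM in cdKO overload and 277, 249 and 361 CPM in cdKO sham, against 115, 81.8 and 72.4 CPM in control overload and 417, 410.1 and 279 CPM in control sham. It fell in both genotypes without overlap (-0.75 ± 0.24 in cdKO and -2.06 ± 0.25 in control cells), with an interaction of 1.31 ± 0.35 (adjusted p = 0.438).

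Within the TGF-beta pathway, 2 genes rose and 7 fell in cdKO, against 5 and 8 in control cells, of 34 tested (all genes: 6.37% and 6.68% in cdKO, 10.6% and 11% in control), and the median interaction was 0.11. Tgfbi, a matrix protein induced by TGF-beta, had an interaction of 0.87 ± 0.35. Ltbp2, a member of the latent TGF-beta binding protein family, had 91 counts in control overload and 0 in control sham and was at least 3.67-fold higher there against the floor. In cdKO it was at 6.18, 14.3 and 2.25 CPM after overload and 1.83, 3.12 and 7.73 CPM in sham muscle. Among 25 signals to muscle stem cells, 9 rose and 2 fell in cdKO, against 7 and 2 in control cells. Ccn4, of the CCN family, rose by 2.75 ± 0.37 in cdKO and 3.88 ± 0.45 in control cells, with an interaction of -1.13 ± 0.59. For the 14 Wnt genes the median interaction was -0.035, and Fzd7, a Wnt receptor, fell in cdKO (-3.49 ± 0.84, adjusted p = 0.00211). It was at 1.54, 1.30 and 2.25 CPM in cdKO overload, from 4 counts in all, against 22, 21.9 and 19.3 CPM in cdKO sham.

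Genes that mark the resting identity of these progenitors mostly fell in both genotypes. Of 32 tested, 3 rose and 18 fell in cdKO, against 3 and 24 in control cells. The median overload change was -1.08 in cdKO and -1.48 in control cells, and the median interaction was 0.36, with 24 of 32 above 0. Ly6c1, a surface antigen whose reads may be shared with its near-identical neighbour, was at 703, 1270.2 and 1232 CPM in cdKO overload and 1115, 1364 and 963 CPM in cdKO sham, and at 753, 589 and 370.1 CPM in control overload and 1403, 1671 and 1575 CPM in control sham. Overload lowered it in control cells (-1.44 ± 0.28, adjusted p = 0.000747), the change in cdKO was -0.10 ± 0.28, and the interaction was 1.34 ± 0.40 (adjusted p = 0.601). Efemp1, a fibulin, fell in both (-1.38 ± 0.25 in cdKO and -2.33 ± 0.26 in control cells; interaction 0.95 ± 0.36).

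Cxcl14, a chemokine of stromal cells, went the other way. It was at 2093, 2089 and 2099 CPM in cdKO overload and 1298, 1411 and 1023 CPM in cdKO sham, against 2081, 2830.0 and 2557 CPM in control overload and 838, 725 and 573 CPM in control sham. Sham levels were all higher in cdKO, and overloaded levels overlapped. It rose by 0.75 ± 0.25 in cdKO and 1.80 ± 0.25 in control cells, and the interaction was -1.05 ± 0.35 (adjusted p = 0.732). Over the 25 alternatives the median interaction of the identity list ran from 0.26 to 0.60, and without cdKO overload replicate 2 it was 0.26. Pdgfra, the receptor used for the sort, was at 321, 391 and 259 CPM in cdKO overload and 565, 899.6 and 593 CPM in cdKO sham, and at 443, 376 and 308 CPM in control overload and 608, 479.9 and 479 CPM in control sham. It fell in cdKO (-1.09 ± 0.25, adjusted p = 0.00620), changed by -0.48 ± 0.25 in control cells, and had an interaction of -0.61 ± 0.36.

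Of 19 YAP and TAZ target genes tested, 4 rose and 2 fell in cdKO (all genes: 6.37% and 6.68%), against 5 and 4 in control cells (all genes: 10.6% and 11%), and 1 was negative and 0 positive for the interaction at an unadjusted p under 0.05. Their median overload change was -0.16 in cdKO and -0.095 in control cells, and the median interaction was 0.086, against 0.022 over all genes. Ccn2, connective tissue growth factor, was at 691, 784 and 832 CPM in cdKO overload and 249, 167 and 77.3 CPM in cdKO sham, and at 295, 1348 and 1619 CPM in control overload and 153, 309 and 191 CPM in control sham. It rose by 2.22 ± 0.55 in cdKO and 2.31 ± 0.55 in control cells, and the interaction was -0.084 ± 0.78, with a 95% interval of -1.78 to 1.61 that spans large differences either way. Thbs1, thrombospondin 1, rose by 1.57 ± 0.29 in cdKO and 1.63 ± 0.29 in control cells, and its interval ran from -0.92 to 0.79. Ccn1, a matricellular protein of the same family as Ccn2, did not pass in either genotype, with an interval of -0.67 to 1.41. Ankrd1, an ankyrin repeat protein, had too few counts to be tested, with 4, 3 and 1 in cdKO overload, 2, 0 and 2 in cdKO sham, 2, 6 and 9 in control overload and 0, 0 and 3 in control sham.

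Igfbp3, an insulin-like growth factor binding protein, was the target with the smallest interaction p. It was at 12.4, 14.3 and 23.6 CPM in cdKO overload and 20.2, 53.1 and 21.3 CPM in cdKO sham, against 25.8, 75.3 and 58.4 CPM in control overload and 24.8, 20.5 and 32.4 CPM in control sham. The overloaded cdKO libraries all lay below the overloaded controls. Its interaction was -2.10 ± 0.62 (adjusted p = 0.582). Amotl2, an angiomotin that binds YAP, was at 18.5, 14.3 and 7.86 CPM in cdKO overload and 22, 39.6 and 42.5 CPM in cdKO sham, and at 48.2, 33.8 and 40.9 CPM in control overload and 74.3, 46.5 and 45.4 CPM in control sham. cdKO libraries were lower than controls under both loads without overlap, it fell with overload in cdKO (-1.40 ± 0.39, adjusted p = 0.0176), and its interaction was -0.94 ± 0.51. Crim1, a membrane protein that binds BMPs, fell in control cells (-1.28 ± 0.36, adjusted p = 0.0124) and had an interaction of 0.84 ± 0.50. Of 20 genes of the Hippo pathway itself, 0 rose and 3 fell in cdKO, against 2 and 2 in control cells, beside the same shares over all genes. Tnik, a kinase that can act on the pathway, had an interaction of 1.33 ± 0.64 (adjusted p = 0.931).

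The promoters of Ccn1, Amotl2 and Crim1 are shown because they hold the TEAD motif GGAATG, through which YAP and TAZ reach DNA, in the same 250 bases before the start (RefSeq, GRCm38.p6, 5′ to 3′ on the gene's strand). The capitals mark the match, which reads CATTCC where it is on the other strand. It starts 103 bases before the start in Ccn1 (chr3:145649986-145650235, minus strand), 65 in Amotl2 (chr9:102717554-102717803, plus strand) and 79 in Crim1 (chr17:78199998-78200247, plus strand). Over the window of 250 bases before to 50 after the start, 6 of the 14 targets with a promoter held it (42.9%), against 11.5% of all tested genes with a promoter, 13.5% of those with a positive and 10.4% of those with a negative interaction at an unadjusted p under 0.05. The AP-1 motif TGANTCA was in 10.3% of those with a positive interaction, 3.30% of those with a negative one and 4.60% of all.
Ccn1: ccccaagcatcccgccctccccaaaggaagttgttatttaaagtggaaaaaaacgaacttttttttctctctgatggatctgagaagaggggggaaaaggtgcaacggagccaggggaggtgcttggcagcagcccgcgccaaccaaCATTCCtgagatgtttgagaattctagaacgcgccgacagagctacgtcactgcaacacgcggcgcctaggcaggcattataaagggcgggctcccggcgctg
Amotl2: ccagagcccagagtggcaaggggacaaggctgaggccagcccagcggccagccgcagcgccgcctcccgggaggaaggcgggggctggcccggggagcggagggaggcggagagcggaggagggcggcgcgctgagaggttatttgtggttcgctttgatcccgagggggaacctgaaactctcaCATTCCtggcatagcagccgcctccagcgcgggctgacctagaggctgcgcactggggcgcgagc
Crim1: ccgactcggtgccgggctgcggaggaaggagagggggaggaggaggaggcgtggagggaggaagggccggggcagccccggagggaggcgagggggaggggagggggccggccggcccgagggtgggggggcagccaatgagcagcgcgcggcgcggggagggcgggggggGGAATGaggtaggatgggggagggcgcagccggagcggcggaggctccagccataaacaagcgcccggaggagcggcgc

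Genes of protein folding mostly rose in both genotypes. Of 35 genes of folding in the endoplasmic reticulum (ER), 23 rose and 0 fell in cdKO, against 27 and 0 in control cells, with median overload changes of 1.07 in cdKO and 1.18 in control cells. Their median interaction was -0.10, and it changed sign between alternatives (-0.36 to 0.14). Hsp90b1, the ER chaperone GRP94, rose in control cells (1.45 ± 0.32) and changed by 0.61 ± 0.32 in cdKO (adjusted p = 0.222), with an interaction of -0.84 ± 0.45. Ero1l and Hyou1 went the other way. Ero1l rose in cdKO (1.47 ± 0.42, adjusted p = 0.0192) and changed by 0.27 ± 0.42 in control cells, with an interaction of 1.20 ± 0.60. Hyou1 rose in both (1.86 ± 0.33 in cdKO and 1.06 ± 0.33 in control cells), with an interaction of 0.80 ± 0.47. Of 34 genes of ribosome biogenesis, 11 rose and 1 fell in cdKO, against 17 and 2 in control cells (median interaction -0.23). Ncl, nucleolin, rose in control cells (1.18 ± 0.25) and had an interaction of -0.74 ± 0.35. Rrp9 rose in cdKO instead (0.95 ± 0.32, adjusted p = 0.0477) and changed by 0.0053 ± 0.31 in control cells, with an interaction of 0.94 ± 0.45. Of 51 ribosomal protein genes, many with pseudogenes that may take part of their reads, 7 rose in cdKO and 5 in control cells, and the median interaction was 0.16.

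Metabolic groups held single genes with larger differences. Slc7a11, the cystine transporter, was at 85, 58.5 and 127 CPM in cdKO overload and 20.2, 7.29 and 15.5 CPM in cdKO sham, against 53.4, 44.8 and 53.7 CPM in control overload and 31.5, 15 and 22.7 CPM in control sham. It rose in both, by 2.74 ± 0.40 in cdKO and 1.17 ± 0.39 in control cells, one of the stronger responses of cdKO cells, with an interaction of 1.57 ± 0.56 (adjusted p = 0.813). Of the 19 genes of amino acid supply, 10 rose and 0 fell in cdKO, against 11 and 2 in control cells. Slc1a5, a glutamine transporter, fell in control cells (-0.71 ± 0.26; interaction 0.83 ± 0.36). Of 18 glycolysis genes, 6 rose and 1 fell in cdKO, against 7 and 1 in control cells (median interaction -0.39). Gapdh, a glycolytic enzyme whose many pseudogenes make its count uncertain, was at 17, 5.20 and 20.2 CPM in cdKO overload and 22, 18.7 and 15.5 CPM in cdKO sham, and at 29.3, 46.7 and 30.4 CPM in control overload and 11.3, 9.57 and 9.72 CPM in control sham, with an interaction of -2.22 ± 0.65. These levels are low for a glycolytic enzyme.

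Redox genes leaned towards a higher change in cdKO cells, with few calls. Of 22 tested, 2 rose and 4 fell in cdKO, against 1 and 4 in control cells, the interaction was above 0 for 18, and its median was 0.48, or 0.032 with the Y-linked share as a covariate. The metallothioneins Mt1 and Mt2, which bind metals, had interactions of 1.22 ± 0.46 and 1.14 ± 0.48, with a fall of Mt1 in control cells (-0.95 ± 0.32, adjusted p = 0.0400), and Sqstm1, an autophagy receptor, one of 0.98 ± 0.40. Of 15 genes of the mitochondrial genome, 0 rose and 2 fell in cdKO, against 3 and 0 in control cells, and the interaction was below 0 for 14 (median -0.46). mt-Nd5, a complex I subunit, rose in control cells (1.01 ± 0.26, adjusted p = 0.00674) and changed by 0.14 ± 0.26 in cdKO, with sham levels of 5212, 5279 and 4689 CPM in cdKO against 3072, 3371 and 3781 CPM in controls. For 45 nuclear genes of the respiratory chain the median interaction was -0.018, with 8 risers in each genotype. The remaining lists, read for adipogenic, adhesion, growth factor receptor, immediate early and sterol genes, had median interactions of 0.20, 0.14, 0.29, 0.21 and -0.21, each with at most 1 gene at an unadjusted p under 0.05 in either direction.

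**Figure D5:**
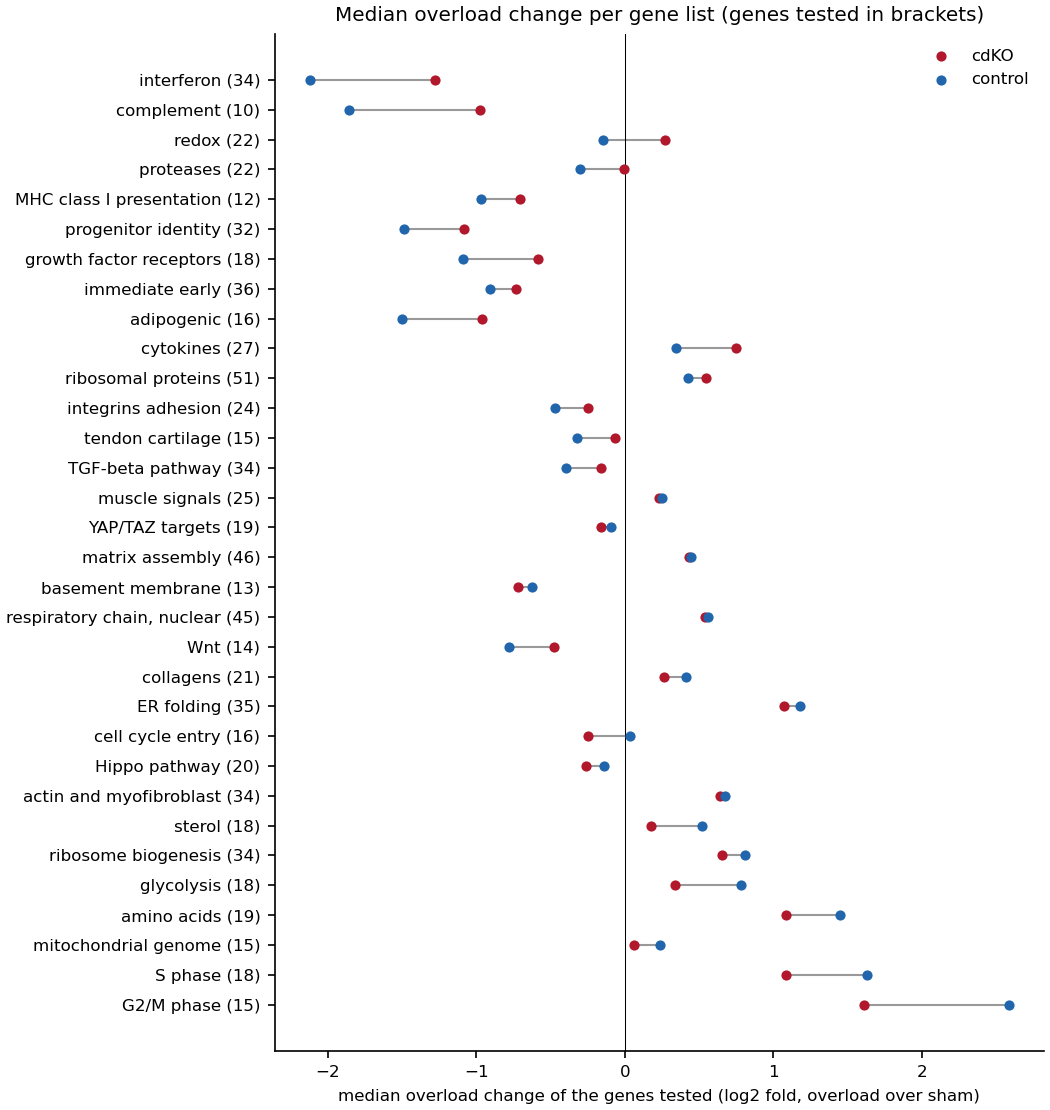
Median overload change (log2 fold of overload over sham) of the genes tested in each of 32 lists, in cdKO (red) and control (blue) cells, ordered by the median interaction. Interferon-response and complement genes at the top had smaller median decreases in cdKO, G2/M and S phase genes at the bottom had smaller median increases in cdKO, and matrix assembly and YAP/TAZ target genes lie close to equality.

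Summed markers of cells other than progenitors, which a sort may let through, varied with load, and their part in the results above was not tested. Summed endothelial markers (12, of which 8 tested) were at 69.5 to 89.7 CPM in cdKO overload, 132 to 365 CPM in cdKO sham, 27.3 to 229 CPM in control overload and 163 to 327 CPM in control sham, with Cldn5 at 0 in cdKO overload. Pericyte markers (10, of which 6 tested) were at 111 to 132 CPM in cdKO overload, 209 to 262 CPM in cdKO sham, 92.2 to 146 CPM in control overload and 212 to 295 CPM in control sham. Of 15 macrophage markers 1 was tested, with 2 counts of C1qa and 3 of Tyrobp in all, and lymphocyte markers (9, of which 0 tested) at most 32.4 CPM. Muscle stem cell markers (10, of which 4 tested) stood between 81.0 and 153 CPM, with 2 counts of Myod1, and myofibre markers (13, of which 2 tested) between 13 and 151 CPM, with Tnnc2 at 0. Schwann markers (8, of which 3 tested) ran from 327 to 680 CPM. Tenocyte markers (6, of which 3 tested) were at 3714 to 4036 CPM in cdKO overload, 209 to 480.3 CPM in cdKO sham, 2362 to 5117 CPM in control overload and 107 to 381 CPM in control sham, mostly from Thbs4. Of the tested cell type markers outside the erythroid list, 0 had an interaction at an unadjusted p under 0.05.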

How the data were processed

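Counts per gene, as deposited by the authors, were taken from 1 table of 54100 genes and 12 libraries, unnormalized. Per the submitters' processing notes, Trim Galore 0.6.6, HISAT2 2.2.1, featureCounts 2.0.1, DESeq2 1.26.0 and the GRCm38 build were used. Not given in the sources used here were the annotation release, the strand setting and the use of molecular identifiers. Per the labels' protocols, RNA came from 1000 sorted cells per tube in a low-input library protocol. Intervals from counts cover counting error only.

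Gene names are those of the deposited table, and coordinates are from a GENCODE annotation of GRCm38, which held 54100 of 54100 identifiers. Genes were kept by edgeR's filterByExpr (8161 genes), scaled by TMM and fitted with edgeR 4.0.16 (robust glmQLFit, prior count 0.125, R 4.3.3) on the 4 group means without covariates. The interaction, both overload changes, both genotype differences and the average overload change were contrasts of that fit, with Benjamini-Hochberg adjustment over the 8161 genes and a threshold of 0.05. Standard errors combine the fit's information matrix with the quasi-likelihood spread, and 95% intervals use the same t distribution. CPM values use TMM library sizes, and list levels per library are means of log2 CPM with a prior count of 2. The floor of 3 counts is 1.95 to 9.72 CPM, depending on the library. The script was tested on simulated data. Libraries of a group differed beyond sampling noise in every pair (3.22 to 19.2 for chi-square over its degrees of freedom).

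Named genes were, in each direction, the 8 with the smallest interaction p and at least 20 CPM (predicted genes and pseudogenes left out), the 3 with the smallest p of each list, 8 genes chosen by name, and the 5 with the largest average overload change and no overlap of overloaded and sham libraries. F2rl1 was added after its values were seen. A few genes that this rule names are not reported here. The members and lists were chosen with earlier results of these data known. Alternatives were DESeq2 1.42.0, limma 3.58.1 voom with quality weights, other scalings and filters, thinned counts, a replicate block, 2 covariates and libraries left out.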

Additional observations from a re-analysis of the deposited data

How the results depend on the processing

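Limits: 3 libraries per group, low depth and 2 overloaded libraries near sham leave intervals wide, the Y-linked share differs between overloaded groups, and 0 interaction calls do not show equal responses. Of 1066 gene values under 13 settings and 984 with 1 library left out, 1045 and 970 kept direction and side of the threshold. With 0 calls in the main fit, any uncalled value of the same sign counted as kept. Many of these genes were named for a small interaction p, so the shares are no measure of how firm a difference is. The interaction count was 0 higher and 0 lower, except 1 higher (Procr) by DESeq2, with thinned counts and without both libraries nearest to sham, and 3 higher and 7 lower of 37990 genes with no filter. The filter of 10 CPM in 3 libraries kept 9679 genes, more than the main one, and called 0. Whether replicate numbers pair the libraries was not settled. Correlations of libraries with the same number ran from -0.23 to 0.27 over 18 pairs, 6 over 0.1, and unlike numbers were not compared. Both the highest and the lowest were between libraries numbered 2. The replicate block gave 0 calls, as did the main fit, so this count cannot decide it.

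With no filter, falls numbered 347 in cdKO and 577 in control, cdKO against control gave 4 higher and 13 lower in overloaded muscle, and unadjusted interactions were 859 higher and 490 lower. Unadjusted counts were 403 higher by voom, 138 lower by DESeq2 and 371 higher without both nearest libraries, where falls in cdKO were 857 and cdKO against control 7 higher and 12 lower (overloaded) and 1 higher (sham). In control cells, rises and falls were 246 and 379 with the Y-linked covariate, 533 and 574 with the satellite covariate, and 322 and 394 without the lowest and highest satellite share, chosen after seeing the data. In overloaded muscle, higher calls were 0 by voom, thinned and with the Y-linked covariate, and lower calls 1 thinned and 1 without those satellite libraries. In sham muscle, higher calls were 1 by DESeq2 and 1 by voom, and lower calls 0 thinned and 0 without those satellite libraries.

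With 1 library left out, interaction calls ran from 0 to 1 higher and 0 to 0 lower, unadjusted ones from 149 to 469 and 172 to 335, overload calls in cdKO from 215 to 615 and 216 to 695, in control from 497 to 1172 and 561 to 1241, and on average from 1066 to 1545 and 1125 to 1675. cdKO against control ran from 0 to 17 and 1 to 17 in overloaded, and 0 to 0 and 0 to 1 in sham muscle. Median interactions ran from -0.36 to -0.090 for risers and 0.024 to 0.47 for fallers, with 1399 to 2454 smaller in cdKO. The lowest counts came without cdKO overload replicate 3 in cdKO and without control overload replicate 2 in control cells, and without control overload replicate 1 cdKO against control gave 17 higher and 17 lower. The counts of overload calls in cdKO also moved by over 1.5 times without cdKO overload replicate 1 (242 and 253) or cdKO sham replicate 2 (302 and 255), as did falls in control cells without control overload replicate 3 (582).

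Signs turned for Lig1 (0.0039), Tpi1 (0.18), Ccn2 (1.86) and Timp1 (0.55) with the Y-linked covariate, for Yap1 by voom (0.045), thinned (0.079) and without both nearest libraries (0.32), for Thbs1 thinned (0.0077) and with the replicate block (0.0083), for Ccn2 with the satellite covariate (0.15) and without the satellite libraries (0.18), and without both nearest libraries for Inmt (-0.20), G0s2 (-2.13) and Slco2b1 (-0.29). With 1 library left out the ranges were -0.48 to 0.11 for Yap1, -0.41 to 0.15 for Thbs1, -0.56 to 0.29 for Ccn2, -0.81 to 0.047 for Timp1, -1.10 to 1.43 for Inmt, -2.34 to 2.05 for G0s2 and -1.26 to 1.76 for Slco2b1. The causes were not tested.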

Other observations

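Haemoglobin genes, which mark red cells rather than progenitors, had large opposite values on few counts. Hbb-bs had 1 count in cdKO overload and 58 in cdKO sham, a ratio of 0.0151 (95% counting interval 0.000376 to 0.0876). In controls it had 119 counts after overload and 1 in sham muscle, a ratio of 59.3 (10.4 to 2362). Hba-a2 had 0 counts in cdKO overload and was at least 5.87-fold lower than in cdKO sham, and its reads can be shared with Hba-a1. Summed erythroid markers were at 0 to 1.12 CPM in cdKO overload, 5.50 to 129.5 CPM in cdKO sham, 12.3 to 281 CPM in control overload and 0 to 4.50 CPM in control sham, and 3 of 3 tested were negative at an unadjusted interaction p under 0.05.

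Y-linked genes were also unequal over the 4 groups. The interactions of Uty and Ddx3y were 2.57 ± 0.77 and 1.45 ± 0.66 (SE), with 3 of 5 sex-linked genes positive at an unadjusted p under 0.05, and none of the 5 passed adjustment. Xist, an RNA of the inactive X chromosome in female cells, had an interaction of -2.13 ± 1.57. Its mean was 33.4 CPM in cdKO overload, 99.0 in cdKO sham, 99.8 in control overload and 69.2 in control sham. The labels give no sex, and a mix of sexes was not tested. Among the 24 genes whose overloaded and sham libraries separated in opposite directions, Ap2b1, a subunit of the endocytic AP-2 adaptor, had an interaction of -1.68, Smc3, a cohesin subunit, -0.99, and Rbbp8, which acts in DNA end resection, 1.63. These 3 were chosen after their values were seen.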
